A study of Mus musculus with 12 samples.

Results

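The measurement described here is how the siRNA against Pdx1 changed the ratio of ribosome-bound (IP) to total RNA, gene by gene, in MIN6 cells. For each gene it is the log2 fold change after Pdx1 siRNA in IP RNA minus the log2 fold change in total RNA, called the log2 difference below. A positive value means that the IP to total ratio was higher with Pdx1 siRNA than with the control siRNA, and a negative value that it was lower. All 12 libraries of the series entered it: NT IP, NT total, Pdx1 siRNA IP and Pdx1 siRNA total, with 3 libraries in each group. It could be computed for all 12643 genes of the tables, and 29 of them passed the test.

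MIN6 is a line from a mouse insulinoma that makes insulin and is used in place of pancreatic beta cells. In every group the cells were at passage 29, were nucleofected with an siRNA (Pdx1, or NT as the control) and were harvested 72 h later. RNA was isolated by TRAP, translating ribosome affinity purification. The sources used here name neither the tagged ribosomal protein nor a target of NT, and nothing says whether replicates were separate cultures, so p-values measure the spread between these libraries only.

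In TRAP, ribosomes with a tagged subunit are pulled down together with the mRNAs they sit on. An mRNA bound by ribosomes is recovered, while RNA kept in the nucleus or held off ribosomes stays behind. The IP to total ratio of a gene thus tracks the share of its RNA on ribosomes relative to other genes. Each library is scaled to its own total, so the ratio is not an absolute share, and a shift common to all genes cancels. The ratio does not count how many ribosomes an mRNA carries. PDX1, the protein encoded by the siRNA target and not measured here, is a homeodomain transcription factor. It activates the insulin genes and keeps beta cells in their identity. A change in transcript level that is equal in both fractions cancels in the ratio. A change that differs between the fractions remains, whether it lies in IP RNA, in total RNA or in both.

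The libraries held 29430690 to 45806807 counts over these genes. The summed level of 8 beta-cell markers was 92303 to 237030 CPM (counts scaled by library totals adjusted with TMM, a scaling between libraries). Of 20 immune, endothelial and stromal markers, 0 were among the genes measured. The libraries stood apart in reads at genes with near-identical copies. Rpl32l, a copy of a ribosomal protein gene, had 22 to 37 counts in 4 IP libraries (NT replicate 3 and all Pdx1 siRNA replicates), against 1260 and 1726 in the other NT IP libraries and 699 to 1131 in total RNA. Since every Pdx1 siRNA IP library was in this set, the main results are also given from a fit with a term for these 4 libraries, in which NT IP replicate 3 alone sets the term apart from the siRNA.

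The siRNA lowered its target in both fractions. Pdx1 stood at 118, 123 and 109.6 CPM in NT total RNA and at 47.6, 57.4 and 47.9 CPM in Pdx1 siRNA total RNA. In IP RNA it stood at 104, 115 and 111 CPM with NT and at 50.6, 46.7 and 39.2 CPM with Pdx1 siRNA. The groups of each fraction did not overlap. The log2 fold changes were -1.20 in total and -1.27 in IP RNA, and their difference, -0.08 (SE 0.14, adjusted p = 0.814), did not pass.

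Of the 12643 genes, 29 passed at an adjusted p under 0.05 in edgeR's quasi-likelihood test, which is 0.229% of those tested. The ratio rose for 22 genes (0.174%) and fell for 7 (0.0554%). The split depends on the scaling: with RLE size factors 22 genes were higher and 20 lower, and upper-quartile factors gave 24 and 28. Without adjustment, 1216 genes (9.62%) were higher and 939 (7.43%) lower at p under 0.05. The median log2 difference over all genes was 0.01, with 50% of genes between -0.13 and 0.17, and a typical gene had an SE of 0.14. The count lies on a steep part of the p-value list, since 93 genes had an adjusted p under 0.06 and 383 under 0.1. It was 5 (0.0395%) with the term for the 4 IP libraries and 4 to 571 when a library was left out. Blm, Smarcal1, C1qtnf4 and Cnbd2 passed in all 25 alternatives. With the 4-library term all 29 genes had the same sign and an unadjusted p under 0.05, against 3.50% higher and 3.27% lower of all genes. By adjusted p, 4 of the 29 passed in that fit. The alternatives reuse the libraries from which the 29 genes were chosen, so they give no separate support.

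**Figure D1:**
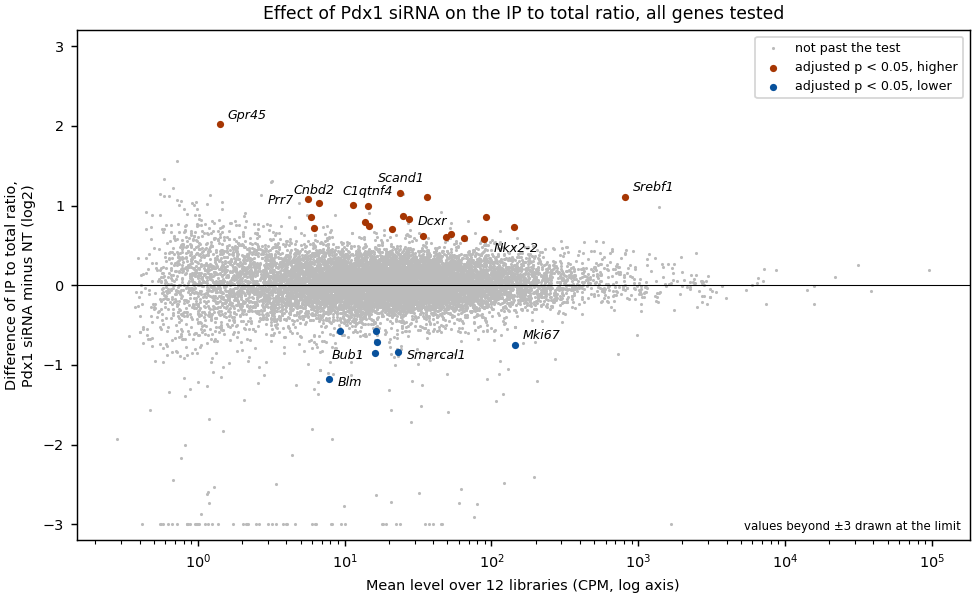
Log2 difference in the IP to total ratio between Pdx1 siRNA and NT (vertical axis) against the mean level over 12 libraries in CPM (horizontal log axis), 1 point per gene; coloured points are the 22 genes higher and 7 lower at an adjusted p under 0.05. Most genes lie near 0, and of the 52 genes below -3, drawn at the axis limit, 28 have copies over at least 10% of the transcript and none passed the test.

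The genes whose ratio fell with Pdx1 siRNA were Blm, Bub1, Smarcal1, Mki67, Melk, E2f8 and Cep162. Bub1 and Mki67 stand in the list of mitosis genes, 0 of the 7 in that of DNA replication, and the other 5 in no list. In 6 of the 7 the transcript itself fell after Pdx1 siRNA in both fractions. Smarcal1 was the exception: its change passed the test in IP RNA and not in total RNA. A lower siRNA effect in IP than in total RNA follows from the choice of these 7 genes.

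Blm encodes a RecQ-family DNA helicase that takes apart recombination intermediates. Its level was 13.1, 12.5 and 12.5 CPM in NT total RNA and 11.7, 11.2 and 10.9 CPM in NT IP RNA. With Pdx1 siRNA it was 5.12, 5.19 and 5.35 CPM in total RNA and 2.06, 2.16 and 1.94 CPM in IP RNA. The siRNA groups were far apart in both fractions, and in IP RNA the gap was larger. The IP to total ratio went from 0.887 to 0.394, a log2 difference of -1.17 (SE 0.12, adjusted p = 5.4e-04), and it was -1.12 with the 4-library term (adjusted p = 0.00527). The lowest and highest values over the 25 alternatives were -1.22 and -1.12.

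Smarcal1 encodes an annealing helicase that remodels stalled replication forks. In total RNA it was at 21.8, 23.9 and 21.6 CPM with NT and between 22.8 and 23.6 CPM in all Pdx1 siRNA libraries, and these groups overlapped. In IP RNA it was 29.3, 28.2 and 30.7 CPM with NT and 18.1, 16.3 and 16.5 CPM with Pdx1 siRNA, with no overlap. In scaled CPM its IP level was thus above its total level with NT, at a ratio of 1.31. After Pdx1 siRNA its IP level was below its total level, at 0.732. The log2 difference was -0.84 (SE 0.10, adjusted p = 0.00246), and -0.90 with the 4-library term (adjusted p = 0.00537). The siRNA effect was 0.05 in total RNA (adjusted p = 0.609) and -0.80 in IP RNA (adjusted p = 1.8e-07).

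Mki67, the gene of the proliferation marker Ki-67, which coats mitotic chromosomes, was the most abundant of the 7. It was at 209, 269 and 233 CPM in NT total RNA and at 212, 224 and 217 CPM in NT IP RNA. After Pdx1 siRNA it was at 71.2, 85.5 and 83.7 CPM in total RNA and at 43.3, 45.4 and 42.7 CPM in IP RNA. With NT the fractions overlapped, and with Pdx1 siRNA every IP library lay below every total library. The ratio fell from 0.917 to 0.546 (log2 difference -0.75, SE 0.13, adjusted p = 0.0399).

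Bub1, a kinase of the spindle checkpoint, had 27.3, 33.1 and 29.2 CPM in NT total and 23.2, 21.8 and 23.5 CPM in NT IP RNA. It had 7.39, 8.70 and 7.45 CPM in Pdx1 siRNA total and 3.15, 4.01 and 2.76 CPM in Pdx1 siRNA IP RNA. The IP libraries were below the total libraries under both siRNAs, by more after Pdx1 siRNA, and the ratio fell from 0.764 to 0.423 (log2 difference -0.85, SE 0.16, adjusted p = 0.0461). Melk, a kinase high in dividing cells, overlapped between the NT fractions, at 25.9 to 26.4 CPM in total and 25.9 to 26.6 CPM in IP RNA. After Pdx1 siRNA it had 8.22 to 9.48 CPM in total and 5.01 to 6.21 CPM in IP RNA, with a log2 difference of -0.71 (SE 0.12, adjusted p = 0.0264).

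E2f8, an atypical E2F factor that represses cell cycle genes, lay at 29.6 to 30.9 CPM with NT and 7.75 to 9.08 CPM with Pdx1 siRNA in total RNA. In IP RNA it lay at 22.3 to 23.5 CPM and at 4.18 to 4.24 CPM, and its log2 difference was -0.57 (SE 0.11, adjusted p = 0.0399). Cep162, a protein of centrioles and the base of cilia, moved less in level: its log2 fold change was -0.46 in total and -1.03 in IP RNA, a difference of -0.57 (SE 0.11, adjusted p = 0.0482). Bub1, Mki67, Melk, E2f8 and Cep162 passed in 3 to 6 of the 12 fits that left out a library, and none of them passed with the 4-library term, where their values were -0.56 to -0.89.

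**Figure D2:**
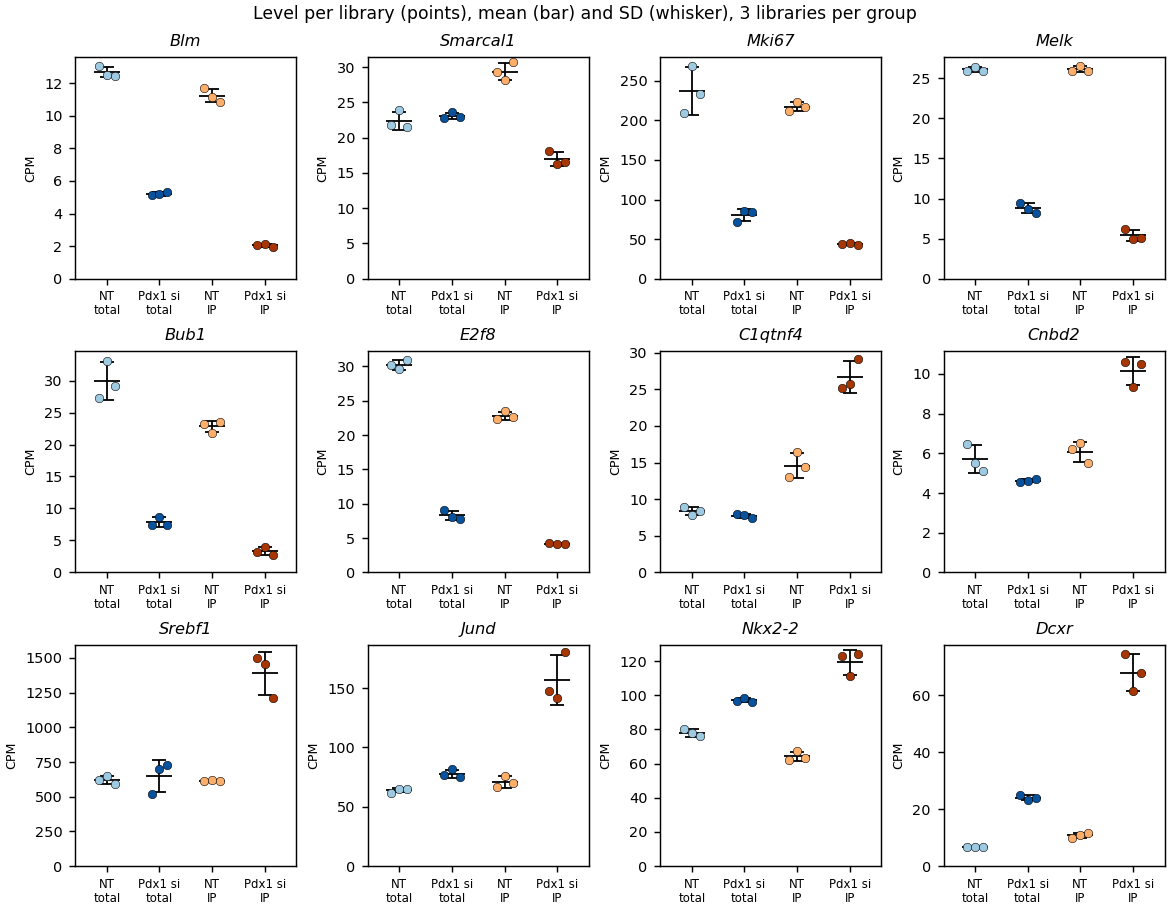
Level in CPM (linear axis from 0) of 12 genes past the test in each of the 12 libraries; points are libraries, the bar is the mean and the whisker the SD of 3 libraries, with NT and Pdx1 siRNA (Pdx1 si) in total and IP RNA. Smarcal1 is lowest in Pdx1 siRNA IP RNA, whereas C1qtnf4, Cnbd2, Srebf1 and Jund are highest there.

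Promoters of many late cell cycle genes hold a short element, the cell cycle genes homology region (CHR), through which repressor complexes silence them in resting cells. The promoters of the genes past the test were searched for 2 forms of it, TTTGAA and TTCGAA, on both strands, from 250 bases before to 50 bases after the RefSeq start. The palindrome TTCGAA reads the same on either strand, and the forms differ at the third base, so both cannot match the same bases. A match was present in 5 of the 7 genes with a lower ratio (Bub1, Cep162, E2f8, Mki67 and Smarcal1), and in 1 of the 19 higher genes for which RefSeq gave a promoter (Tmem191c). Of all measured genes, 1330 of 10081 promoters (13.2%) held a match, and of the mitosis genes below 40 of 50. Blm and Melk had no match in this window. A match is a description of the letters and not a binding site. The 250 bases before the start are shown for 3 of these genes, from RefSeq with GRCm38.p6, on the strand of the gene, with matches in capitals (TTCAAA is TTTGAA on the other strand).
Mki67, chr7:135716380-135716629, minus strand: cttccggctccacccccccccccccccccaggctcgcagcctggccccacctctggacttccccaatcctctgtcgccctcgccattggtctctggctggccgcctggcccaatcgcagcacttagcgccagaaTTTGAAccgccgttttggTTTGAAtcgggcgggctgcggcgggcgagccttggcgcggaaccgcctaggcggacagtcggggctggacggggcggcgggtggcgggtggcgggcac
E2f8, chr7:48881597-48881846, minus strand: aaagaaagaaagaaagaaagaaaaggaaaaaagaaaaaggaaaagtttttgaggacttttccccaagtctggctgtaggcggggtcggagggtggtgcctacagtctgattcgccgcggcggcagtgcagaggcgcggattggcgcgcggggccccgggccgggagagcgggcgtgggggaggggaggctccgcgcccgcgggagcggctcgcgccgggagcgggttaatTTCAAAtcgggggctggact
Smarcal1, chr1:72583001-72583250, plus strand: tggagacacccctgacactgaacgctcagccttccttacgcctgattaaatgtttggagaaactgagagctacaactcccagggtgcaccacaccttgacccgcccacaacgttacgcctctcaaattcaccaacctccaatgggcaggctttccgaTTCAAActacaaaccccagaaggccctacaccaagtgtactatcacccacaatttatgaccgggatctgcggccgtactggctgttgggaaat
Mki67 has matches that begin 116 and 98 bases before the start. E2f8 has a match that begins 20 bases and Smarcal1 a match that begins 93 bases before it.

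Cell cycle genes had log2 differences mostly on the lower side. Of 60 measured genes of mitosis and the spindle, 2 (Bub1 and Mki67) passed at a lower and 0 at a higher ratio. The value was below 0 in 59 of 60, against 48.0% of all genes, and 47 were lower at an unadjusted p under 0.05, against 7.43% of all genes. The median log2 difference was -0.46, where all genes had 0.01. The same genes had a median siRNA effect of -1.80 in total RNA and -2.23 in IP RNA. The median was -0.44 with the 4-library term, with 60 of 60 below 0 and 43 lower at an unadjusted p under 0.05 (3.27% of all genes). It stayed between -0.54 and -0.39 in all 25 alternatives.

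Members with small p that missed the adjusted threshold were Nuf2 of the kinetochore, at -0.51 (SE 0.10, adjusted p = 0.0564), and the condensin subunit Smc2, at -0.58 (SE 0.12, adjusted p = 0.0564). Ccnb1, the mitotic cyclin B1, stood at -0.84, but 51.9% of its transcript matches other loci, and with the 4-library term it stood at -0.40. Its relative Ccnb2, with no such match, stood at -0.49 and -0.46. The centromeric histone Cenpa was the gene above 0, at 0.03 (SE 0.18). Cdca3 and Spc25 were close to it, at -0.03 and -0.07, although Cdca3 fell by 1.97 and 1.99 on the log2 scale in total and IP RNA.

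Of 51 genes of DNA replication, 0 passed, 28 were lower at an unadjusted p under 0.05 (7.43% of all genes) and 49 had a value below 0 (48.0% of all genes). With the 4-library term 21 were lower at an unadjusted p under 0.05 (3.27% of all genes). Their median log2 difference was -0.32 (-0.31 with the 4-library term, and -0.38 to -0.27 over the alternatives), with medians of -1.31 in total and -1.66 in IP RNA. The helicase subunits that license origins were at -0.46 for Mcm2, -0.50 for Mcm3, -0.56 for Mcm4, -0.59 for Mcm5 and -0.44 for Mcm6, with SE of 0.12 or 0.13. The values for Mcm7 (-0.88) and the clamp Pcna (-0.86) are less sure, since they were -0.38 and -0.06 with the 4-library term. Tipin and Gins4 were above 0, at 0.19 and 0.12. The mitosis transcripts have a median length of 3094.5 bases and a GC content of 47.1%, and the replication transcripts 2942 bases and 49.4%. Fewer dividing cells and less RNA per dividing cell cannot be told apart in bulk RNA.

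**Figure D3:**
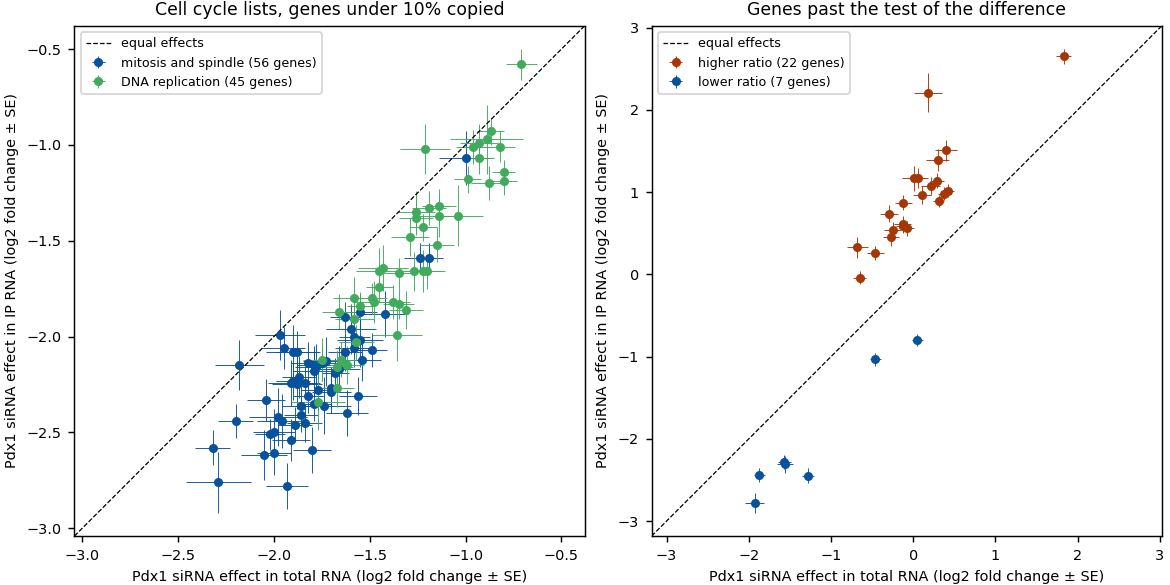
Log2 fold change after Pdx1 siRNA in IP RNA (vertical) against total RNA (horizontal), with SE bars and a dashed line of equal effects; left, cell cycle genes under 10% copied (56 mitosis, 45 replication), right, the 29 genes past the test. Nearly all cell cycle genes lie below the line, that is, their log2 fold change was lower in IP than in total RNA.

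The genes whose ratio rose were mainly genes whose level in IP RNA rose after Pdx1 siRNA. In IP RNA 21 of the 22 rose, while in total RNA 6 rose, 5 fell and 11 did not pass the test. Their median siRNA effect was 0.04 in total and 0.93 in IP RNA, against -0.04 and -0.01 over all genes. The 22 were chosen for a higher siRNA effect in IP than in total RNA, so this pattern follows largely from the choice. The shares of all genes that passed in each fraction are not given here, so these counts have no background. They included regulators of transcription (Srebf1, Jund, Junb, Nkx2-2), a secreted protein (C1qtnf4), metabolic enzymes (Dcxr, Pgls) and a respiratory chain subunit (Uqcrq). C1qtnf4 and Cnbd2 alone among the 22 passed with the 4-library term, and the others passed in 3 to 10 of the 12 fits without a library.

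Srebf1 encodes SREBP1, a membrane-held factor that turns on lipid synthesis genes once it is cleaved, and was the most abundant of the 29. Its level was 619.6, 649 and 592 CPM in NT total RNA, 516, 698 and 728 CPM in Pdx1 siRNA total RNA and 613, 622 and 613 CPM in NT IP RNA. In Pdx1 siRNA IP RNA it was 1501, 1456 and 1212 CPM, above every other library. The ratio went from 0.994 to 2.15, a log2 difference of 1.11 (SE 0.17, adjusted p = 0.0116), and the siRNA effect in total RNA was 0.06 (adjusted p = 0.685). Srebf1 passed in 8 of the 12 fits without a library. With the 4-library term the value was 1.12 and the adjusted p 0.126.

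Of 33 measured genes of sterol and fatty acid synthesis, Srebf1 alone passed, and the median was -0.10 (range over alternatives -0.17 to -0.02). The related Srebf2 stood at 0.40 (SE 0.14, adjusted p = 0.175). The targets Fasn (-0.15) and Scd1 (0.04) did not pass.

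C1qtnf4, a secreted protein of the C1q and TNF related family, was at 8.99, 7.89 and 8.35 CPM in NT and at 7.98, 7.83 and 7.42 CPM in Pdx1 siRNA total RNA, with overlap. In IP RNA it was 13.1, 16.4 and 14.3 CPM with NT and 25.2, 25.7 and 29.2 CPM with Pdx1 siRNA, and these groups did not overlap. The ratio went from 1.74 to 3.45 (log2 difference 0.99, SE 0.13, adjusted p = 0.00631). With the 4-library term it was 1.02 (adjusted p = 0.0325), and over the alternatives 0.89 to 1.07.

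Cnbd2, which has a cyclic nucleotide binding domain, was at 6.47, 5.52 and 5.11 CPM in NT total and at 6.20, 6.51 and 5.50 CPM in NT IP RNA. It was at 4.54, 4.62 and 4.72 CPM in Pdx1 siRNA total and at 10.6, 9.33 and 10.5 CPM in Pdx1 siRNA IP RNA, again the highest group with no overlap. The log2 difference was 1.03 (SE 0.15, adjusted p = 0.0113). Scand1, a small protein with a SCAN domain, starts beside it on the opposite strand (chr2:156311846-156312704, and Cnbd2 chr2:156311946-156375638) and also passed, at 1.15 (SE 0.21, adjusted p = 0.0399). Exons of the other gene cover 40.4% of the Scand1 transcript, and other genes cover 29.7% of that of Cnbd2. Without known strand, reads of these genes cannot be told apart, so their results are not independent.

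The AP-1 subunits Jund and Junb, encoded by single-exon genes, passed with the ratio higher. Jund was at 62.0, 64.7 and 64.9 CPM in NT total, 76.4, 81.7 and 75.4 CPM in Pdx1 siRNA total, 66.6, 76.3 and 69.9 CPM in NT IP and 148, 142 and 181 CPM in Pdx1 siRNA IP RNA. Only the last group stands apart by far, and the log2 difference was 0.86 (SE 0.13, adjusted p = 0.0115). An annotated gene on the opposite strand overlaps 52.6% of the Jund transcript. Junb had 11.9 to 13.9 CPM in NT IP and 18.8 to 20.8 CPM in Pdx1 siRNA IP RNA, against 10.4 to 14.1 CPM over all total libraries (log2 difference 0.74, SE 0.14, adjusted p = 0.0399). Of 31 immediate early genes, these 2 passed higher and 0 lower, and the median was 0.17 (0.12 with the 4-library term). Fos stood at 0.16 and Jun at 0.33 (SE 0.11, adjusted p = 0.139).

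Nkx2-2, a homeodomain factor needed for beta-cell identity, was the member of the beta-cell transcription factors that passed, 1 of 21 measured. It had 80.3, 77.9 and 75.9 CPM in NT total and 96.5, 98.4 and 96.3 CPM in Pdx1 siRNA total RNA. It had 62.0, 67.4 and 63.1 CPM in NT IP and 123, 111 and 124 CPM in Pdx1 siRNA IP RNA. IP RNA lay below total RNA with NT (ratio 0.822) and above it after Pdx1 siRNA (ratio 1.23), a log2 difference of 0.58 (SE 0.10, adjusted p = 0.0303). Its antisense long non-coding RNA Nkx2-2os passed too, at 0.86 (SE 0.16, adjusted p = 0.0399), from 14.2 to 18.1 CPM in NT IP to 28.9 to 36.8 CPM in Pdx1 siRNA IP RNA. Exons of Nkx2-2os cover 13.1% of the Nkx2-2 transcript on the other strand, so part of the reads could be shared. Among the other factors, Mafa stood at 0.54 (SE 0.19, adjusted p = 0.173), Nkx6-1 at 0.36, Pax6 at 0.00, Isl1 at -0.02 and Neurod1 at -0.12, and the median of the list was 0.04.

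Dcxr, a reductase of sugars and dicarbonyls that stands in the list of p53 response genes, moved in both fractions. It rose from 6.68, 6.85 and 6.84 CPM to between 23.2 and 25.1 CPM in total RNA, and from 9.88, 10.9 and 11.7 CPM to 74.4, 61.6 and 67.9 CPM in IP RNA. No groups overlapped, and the ratio went from 1.59 to 2.82 (log2 difference 0.83, SE 0.12, adjusted p = 0.0115). Of 31 p53 response genes it alone passed, while 11 were higher and 0 lower at an unadjusted p under 0.05, against 9.62% and 7.43% of all genes. There were 6 higher with the 4-library term (3.50% of all genes). Their median was 0.22 (0.12 with the 4-library term, 0.08 to 0.22 over the alternatives). Cdkn1a, the inhibitor of cyclin-dependent kinases, stood at 0.51 (SE 0.11, adjusted p = 0.0593), at 43.1 to 46.4 CPM in NT and 118 to 129.7 CPM in Pdx1 siRNA total RNA, and 51.6 to 61.2 and 212 to 234 CPM in IP RNA. Phlda3 stood at 0.57 and Aen at 0.34, neither past the test.

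Uqcrq, a small subunit of respiratory complex III, was at 103, 76.5 and 86.2 CPM in NT total, 79.9, 71.3 and 68.2 CPM in Pdx1 siRNA total, 170.2, 174 and 168 CPM in NT IP and 251, 224 and 226 CPM in Pdx1 siRNA IP RNA. The total groups overlapped and the IP groups did not (log2 difference 0.72, SE 0.14, adjusted p = 0.0482). H2aj, a histone H2A variant, had 21.7 to 27.3 CPM in NT IP and 55.0 to 85.3 CPM in Pdx1 siRNA IP RNA (log2 difference 1.11, SE 0.19, adjusted p = 0.032), and 9.18% of its transcript is copied elsewhere. Prr7, a membrane protein rich in proline, had 3.73 to 4.43 CPM and 8.66 to 13.3 CPM in the same groups (1.09, SE 0.20, adjusted p = 0.0399). The zinc finger gene Zfp428 (0.71) and the membrane protein gene Tmem191c (0.86) completed the genes that met the rule for naming. Another gene overlaps 29.2% of the Tmem191c transcript on its own strand and 17.6% of Zfp428 on the other.

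A further 8 genes with a higher ratio fell outside that rule and are named here after their values were seen. The orphan receptor gene Gpr45 had the highest log2 difference of all 29 at the lowest level. It was at 1.47, 1.73 and 1.61 CPM in NT total, 1.69, 2.15 and 1.60 CPM in Pdx1 siRNA total, 0.291, 0.506 and 0.393 CPM in NT IP and 2.10, 1.47 and 1.97 CPM in Pdx1 siRNA IP RNA. In scaled CPM it was thus lower in IP than in total RNA with NT, and close to its total level after Pdx1 siRNA. The ratio was 0.246 against 0.999, a log2 difference of 2.02 (SE 0.30, adjusted p = 0.0115). Gpr45 passed in 10 of the 12 fits without a library. The others were Il4i1b (1.00, with 90.9% of its exons shared with other genes), Gm5617 (0.80), Bmyc (0.71, with 62.8% shared), the pentose phosphate enzyme Pgls (0.64), the ubiquitin ligase Rnf126 (0.61), Ssbp4 (0.60) and Lrrc10b (0.60). The level of Rnf126 fell by 0.65 on the log2 scale in total RNA, while its change in IP RNA was -0.04 (adjusted p = 0.692).

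The higher genes shared features that the choice did not use. Their median transcript length was 1635 bases and their median GC content 60.5%, against 2966 bases and 50.5% over all genes, and 3691 bases and 45.8% for the 7 lower genes. The same gradient ran through the protein-coding genes as a whole. Over the 11160 of them that are under 10% copied, the median log2 difference was 0.17, 0.06, 0.00, -0.04 and -0.09 from the shortest to the longest quintile of transcripts. From the lowest to the highest quintile of GC content it was -0.09, -0.05, 0.00, 0.07 and 0.15. In the shortest quintile 24.5% of genes were higher and 1.70% lower at an unadjusted p under 0.05, and in the longest quintile 2.02% and 10.9%.

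Length and GC content each went with the ratio when the other was held in its middle quintile. At middle GC, the median went from 0.13 in the shortest to -0.08 in the longest quintile, and at middle length from -0.08 in the lowest to 0.11 in the highest GC quintile. Short transcripts of high GC content had a median of 0.27 (660 genes), and long ones of low GC content -0.12 (717 genes). The order was the same but flatter with the 4-library term, 0.12 to -0.05 over length and -0.02 to 0.10 over GC content. The length of the 5' untranslated region showed no such order, with medians of 0.00 to 0.02 in all quintiles. Genes are not replicates, and these medians are given without a test. Fragment sizes and RNA quality of the libraries are not known from the files, and their part in this gradient was not tested.

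**Figure D4:**
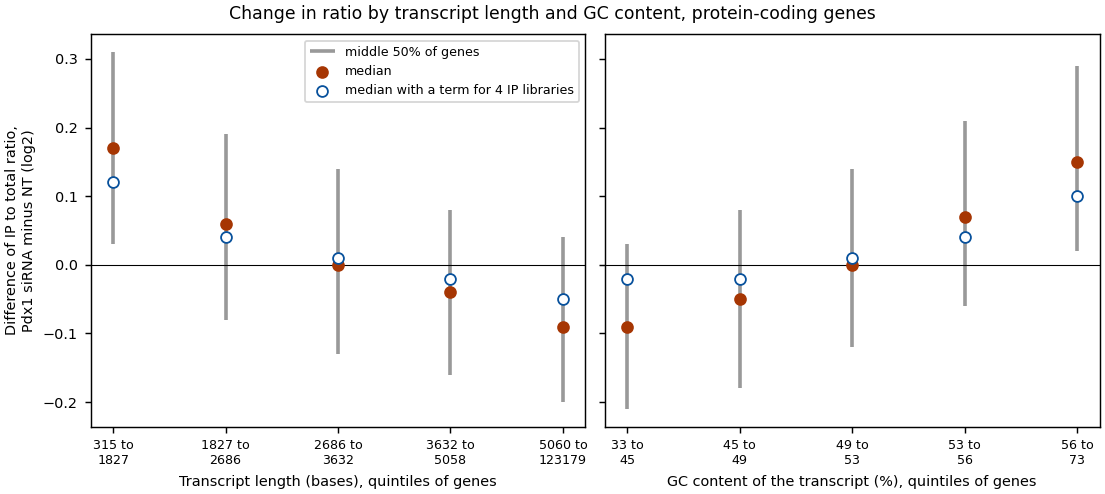
Median log2 difference in the IP to total ratio for quintiles of 11160 protein-coding genes by transcript length (left) and GC content (right); filled points are medians, bars the middle 50% of genes, open points medians with the 4-library term. The median falls from 0.17 to -0.09 with length and rises from -0.09 to 0.15 with GC content.

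Gene groups with short transcripts differed in direction over all their measured members, copied ones included. Of 37 subunits of respiratory complex I (median length 758 bases), 0 passed, and 12 were higher and 2 lower at an unadjusted p under 0.05, against 9.62% and 7.43% of all genes. Their median was 0.22, and it ranged from 0.10 without NT total replicate 1 to 0.32 without Pdx1 siRNA total replicate 1. With the 4-library term the median was 0.14 and 0 were higher at an unadjusted p under 0.05 (3.50% of all genes). Complexes II to V had a median of 0.13 (0.05 without Pdx1 siRNA total replicate 3 and 0.24 without replicate 1), with Uqcrq as the gene that passed, 1 of 41. Mitochondrial ribosomal proteins had a median of 0.10 (0.05 without NT total replicate 1 and 0.21 without Pdx1 siRNA total replicate 1), and 0 of 77 passed. The host genes of small nucleolar RNAs, several of which are known to be degraded in step with translation, had a median of 0.32 with 15 of 16 above 0, against 52.0% of all genes, and 0 passed. That median was 0.19 without Pdx1 siRNA total replicate 2 and 0.53 without replicate 1. It was 0.20 with the 4-library term, with 11 of 16 above 0 and 0 higher at an unadjusted p under 0.05. On the lower side, the proteasome (median length 1538 bases) had a median of -0.08. At an unadjusted p under 0.05, 2 of 40 were higher and 11 lower, and 1 was lower with the 4-library term. Its 31 members under 10% copied had a median of -0.05, with 2 higher and 4 lower. Cytosolic ribosomal proteins (785.5 bases) were at -0.26, but 77 of 82 are copied over at least 10%, and the other 5 had a median of 0.13. For comparison, the shortest quintile of protein-coding genes under 10% copied had a median of 0.17.

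Lists of the secretory pathway, which holds most of the output of a beta cell, had median ratio changes close to that of all genes. The median was -0.02 over 26 genes of insulin and the secretory granule, 0.01 over 37 ER chaperones and unfolded protein response genes, 0.02 over 34 genes of ER translocation and glycosylation, and -0.06 over 35 genes of vesicle coats, with 0 genes past the test in any of them. The granule values ran from -0.25 to 0.99. The highest was that of Pcsk1n (SE 0.26, adjusted p = 0.082, 1.07 with the 4-library term), from a ratio of 1.04 to 2.05. Ins1 stood at 0.11 (SE 0.16) and Ins2 at 0.19 (SE 0.19, -0.00 with the 4-library term). The insulin RNAs were enriched in IP RNA under both siRNAs, Ins2 at a ratio of 2.09 with NT and 2.40 with Pdx1 siRNA. Gcg, the glucagon gene, rose by 1.99 in total and 1.85 in IP RNA on the log2 scale, a difference of -0.14 (SE 0.13). The chaperone Hspa5 stood at -0.23 (SE 0.14, adjusted p = 0.436). The glucose transporter Slc2a2 was lower, at -0.66 (SE 0.14), and missed the threshold at an adjusted p of 0.0564.

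Genes whose translation is set by short upstream reading frames are a place where ratio changes are looked for under stress. Of 32 genes of ATF4 and the integrated stress response, 0 passed, and 9 were higher and 0 lower at an unadjusted p under 0.05, against 9.62% and 7.43% of all genes. There were 4 higher with the 4-library term (3.50% of all genes). The median was 0.14, and it was between 0.00 and 0.16 over the alternatives. Atf5 stood at 0.51 (SE 0.10, adjusted p = 0.0564), from a ratio of 1.46 to 2.08. Its level was 40.4 to 45.4 CPM in Pdx1 siRNA total RNA against 86.0 to 91.1 CPM with NT, and in IP RNA 88.1 to 94.9 CPM against 124 to 137 CPM. Atf4 stood at 0.23 (SE 0.14, adjusted p = 0.436), Ddit3, the gene of CHOP, at 0.28 (SE 0.12, adjusted p = 0.258) and the small stress protein Nupr1 at 0.63 (SE 0.13, adjusted p = 0.0564). The list of mRNAs with regulatory upstream frames, which shares genes with it, had a median of 0.09 (0.12 with the 4-library term). Of its 26 measured genes 0 passed, and 9 were higher and 0 lower at an unadjusted p under 0.05. With the 4-library term 4 were higher and 0 lower.

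Of 82 cytosolic ribosomal protein genes, 77 have copies over at least 10% of the transcript. Their median was -0.26 and turned to 0.15 with the 4-library term, and 0 passed in either direction. At an unadjusted p under 0.05, 3 were higher and 24 lower, and with that term 2 and 0. The 5 members under 10% copied had a median of 0.13. Across the 449 genes with at least 50% of the transcript copied, 120 were lower and 31 higher at an unadjusted p under 0.05, and 12.5% differed by more than 2-fold, against 0.561% of genes under 10% copied. With the 4-library term, 16 were lower (3.27% of all genes) and 20 higher (3.50%). All 29 genes past the test are under 10% copied. Splicing factors, with a median of -0.18, were at -0.06 with that term, and 14 of 51 were lower and 1 higher at an unadjusted p under 0.05. The 36 of them under 10% copied moved alike, with a median of -0.14 and of -0.06 with that term.

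**Figure D5:**
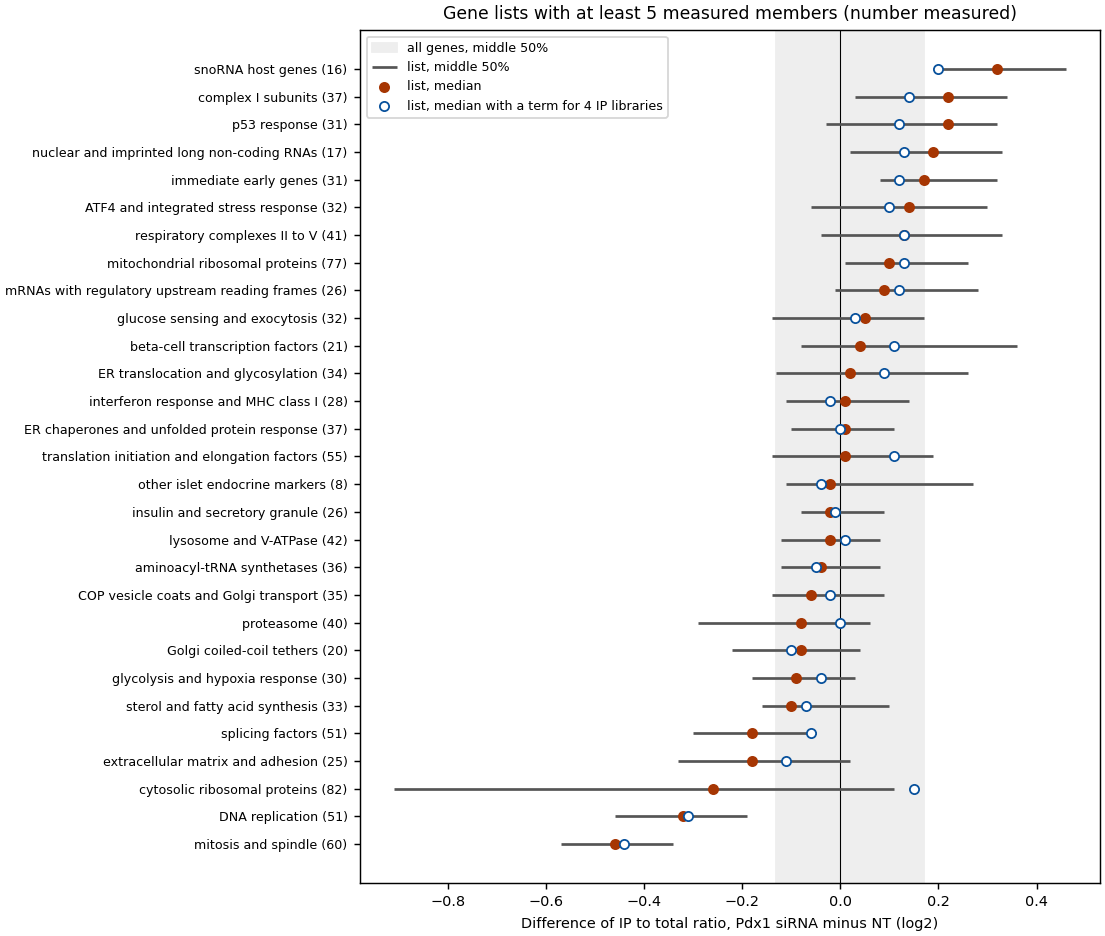
Log2 difference in the IP to total ratio for gene lists with at least 5 measured members (number in brackets); filled points are medians, lines the middle 50% of members, open points medians with a term for the 4 IP libraries, and the grey band the middle 50% of all genes. Mitosis and DNA replication lie lowest under both fits, at -0.46 and -0.32, while the median of ribosomal proteins changes sign.

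In the remaining lists 0 members passed. Most of these lists had medians near that of all genes. These were translation factors (0.01, 55 genes), aminoacyl-tRNA synthetases (-0.04, 36), Golgi tethers (-0.08, 20), glycolysis and hypoxia response (-0.09, 30), lysosome (-0.02, 42), interferon response (0.01, 28), glucose sensing and exocytosis (0.05, 32) and other islet hormones and markers (-0.02, 8). Further off, extracellular matrix genes stood at -0.18, with 18 of 25 genes below 0, against 48.0% of all genes. Nuclear or imprinted long non-coding RNAs stood at 0.19, with 15 of 17 above 0, against 52.0% of all genes. With the 4-library term these medians were -0.11 and 0.13. Acinar and ductal genes, markers of other pancreatic cells, had 4 measured members with a median of 0.07. Of 47 replication-dependent histone genes 1 was measured, at -0.44.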

How the data were processed

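RNA of MIN6 cells was sequenced in 12 libraries, 3 for each combination of siRNA (NT or Pdx1) and fraction (IP or total). The authors deposited whole-number read counts per RefSeq transcript without normalization, 1 table per library. The lowest count of a transcript was 7 in total RNA libraries and 0 in IP libraries. Genes near 0 in total RNA could therefore not enter, whatever their level in IP RNA. TopHat2, featureCounts and mm10 are named, without versions, in the submitters' processing notes. Neither strand nor the treatment of reads with several matches is given in the sources used here.

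Of 17133 transcripts, 16838 were matched to a symbol with a RefSeq table of GRCm38.p6, and the other 295, with 0.58% to 0.83% of the counts, were left out. The transcript with the highest total stood for each of 12643 genes. edgeR 4.0.16 (R 4.3.3) fitted 1 quasi-likelihood model over all libraries with a mean per group, TMM scaling and the default filter, which removed 0 genes. The contrast was the siRNA effect in IP minus that in total RNA, and p-values were adjusted by Benjamini-Hochberg over all genes. CPM used TMM-scaled totals, and SE came from the log2 value and the F statistic. The counts have no molecular identifiers, so the true error is at least the counting error. On simulated counts for this contrast over 12643 genes, genes changed by 1.25, 1.5, 2 and 3 times were called in 4%, 56%, 88% and 98% of cases, along with 6 unchanged genes. The simulated libraries were independent and held no shift like that of the 4 IP libraries, so these rates may not hold for the real data.

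Copies were found with minimap2 2.31 on GENCODE M21 transcripts (at least 100 bases at 95% identity outside the gene's own locus). Genes and lists were chosen with earlier results of these data known. Named were 10 genes chosen by role, up to 12 genes per direction that passed with at least 5 CPM, under 10% copied, under 50% of exon bases shared and with unadjusted p under 0.05 in the same direction with the 4-library term, and up to 3 passing members per list. Other list members were named after their values were seen. Lists are described by counts and medians, without a test. Alternatives were RLE and upper-quartile scaling, DESeq2 1.42.0, limma-voom (limma 3.58.1), other filters, Ins1 and Ins2 left out, counts summed over transcripts, genes with copies left out, replicate numbers as a block, the term for 4 IP libraries and each library left out. Tables and figures were made with Python 3.11.15.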

Additional observations from a re-analysis of the deposited data

Results flagged for a closer look

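The siRNA effect differed between IP and total RNA by a test of the difference itself for 29 genes (edgeR, adjusted p under 0.05). In 4 of them it did so in all 25 alternatives: Blm at -1.17, Smarcal1 at -0.84, C1qtnf4 at 0.99 and Cnbd2 at 1.03 on the log2 scale. Other genes, Scand1 among them, cover 29.7% of the Cnbd2 transcript, and no alternative addresses reads shared between them. Smarcal1 and C1qtnf4 had no siRNA effect past the test in total RNA, whereas Blm and Cnbd2 fell there, by 1.28 and 0.30. With the term for 4 IP libraries a further gene passed, Tpt1, at 3.29 against 0.50 without the term. Copies cover 44.4% of its transcript.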

How the results depend on the processing

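The number of genes past the test moved with nearly every choice, while no sign turned for any of the 29. It was 42 with RLE scaling, 52 with upper-quartile scaling, 54 without Ins1 and Ins2, 27 with transcripts summed, 139 without genes with copies, 327 in DESeq2 and 21 in limma-voom. Of the 29, all were among those of DESeq2 and 21 among those of limma-voom. With the term for 4 IP libraries it was 5, and 4 when genes with copies were also left out, an alternative chosen after seeing the data. Leaving out a library gave 4 to 571 genes. The counts were 4, 10 and 571 without NT IP replicates 1, 2 and 3, of which 221 of the 571 have copies. They were 6, 18 and 4 without NT total replicates 1, 2 and 3, then 11, 66 and 15 without the Pdx1 siRNA IP and 383, 9 and 17 without the Pdx1 siRNA total replicates. The cause of these shifts was not tested.

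With the replicate number as a block over all groups 373 genes passed, and 367 with IP and total RNA of one siRNA paired by number. Same-numbered IP and total libraries correlated in their deviations at -0.048 to 0.522, above 0.1 in 4 of 6 pairs, and libraries with other numbers at -0.376 to 0.262, above 0.1 in 2 of 12. Over any 2 groups, same-numbered libraries correlated at -0.106 to 0.522, above 0.1 in 9 of 18 pairs. Those with other numbers correlated at -0.507 to 0.262, above 0.1 in 7 of 36. Same-numbered pairs were thus above 0.1 more often, but not every one was, and no label ties the numbers to a shared source. The numbers were not taken to pair the libraries, and whether they do is not known.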
